A study of Mus musculus with 6 samples.

Results

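Glycolysis and the hypoxia response were followed in mouse heart cells through 41 listed genes, the enzymes and transporters that turn glucose into lactate and genes known as targets or regulators of hypoxia-inducible factor (HIF). Of these, 38 were named in the array's probe annotation, out of 19505 genes in all, each by 1 probe set. Gpi1 and Eno1 were named by no probe set and were not analysed here, and Ero1l appears in the annotation under its current symbol Ero1a, whose values are given apart and were not counted.

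HIF is a transcription factor whose alpha subunit is hydroxylated by prolyl hydroxylases when oxygen is present and is then destroyed through the VHL ubiquitin ligase. When oxygen is low, or when inflammatory signalling raises its synthesis, the subunit persists, pairs with ARNT and switches on genes of glucose uptake, glycolysis, lactate export, vessel growth and mitochondrial turnover. Activated fibroblasts and macrophages are known to use glycolysis heavily, whereas adult heart muscle lives mostly on fatty acids.

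Expression was measured on 6 Affymetrix arrays, 1 for each of 6 groups. The cultures were cardiac fibroblasts (CF), which lay down collagen, and cardiomyocytes (CM), which beat. For 48 h each received what Ccrl2+ macrophages secrete, what Ccrl2- macrophages secrete, or phosphate-buffered saline (PBS), which the titles call sham. All groups carry the labels heart, C57BL/6N and an age of 15 to 16 weeks. The macrophages were sorted from 6 mixed hearts of WT mice 1 week after TAC (transverse aortic constriction), an operation that overloads the left ventricle, so both secretomes come from a pool of animals. The protocols speak of co-culture with the macrophages and the source labels of their secretome, and the source labels were followed here. The sample descriptions name macrophages as the cells profiled, which the markers below do not bear out. With 1 array a group no spread between samples could be estimated, no difference has a replicate check, and no test was made. In such bulk samples fewer cells of a type and less RNA per cell cannot be told apart.

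Values are on the log2 scale, so a difference of 1 is 2-fold. A gene was counted where the higher value of a pair reached 6.55, the midpoint of the named values and here called the floor. Where the lower value lay under the floor, the difference from the floor is given instead, as "at least". The negative control probe sets had medians of 6.2 to 6.71 and reached 10.2 to 10.74 at their 95th percentile on the 6 arrays, and between 17 (CF in PBS) and 28 (CF with the Ccrl2- secretome) of the 38 genes lay above that mark on a given array. All 13 fibroblast markers were past the floor on the 3 CF arrays, with medians of 15.69, 14.24 and 15.0 (Ccrl2+, Ccrl2- and PBS), and all 14 cardiomyocyte markers on the 3 CM arrays, with medians of 16.3, 16.16 and 16.31. Passing the floor did not separate the cultures. On the CM arrays 13, 13 and 12 of the 13 fibroblast markers passed it, with medians of 10.21, 11.3 and 10.13. On each CF array 13 of the 14 cardiomyocyte markers passed it, with medians of 9.22, 7.58 and 7.78. The CM arrays also carried endothelial markers (medians 12.57, 12.56 and 12.66), and all arrays carried macrophage markers. By contrast, 0 of 9 neutrophil markers reached the floor on any array. Pfkfb4, Eno2 and Car9 lay below the floor on every array, and Ankrd37 reached it on only 1, that of CF with the Ccrl2- secretome. The plot of levels by array shows all 38 genes.

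**Figure D1:**
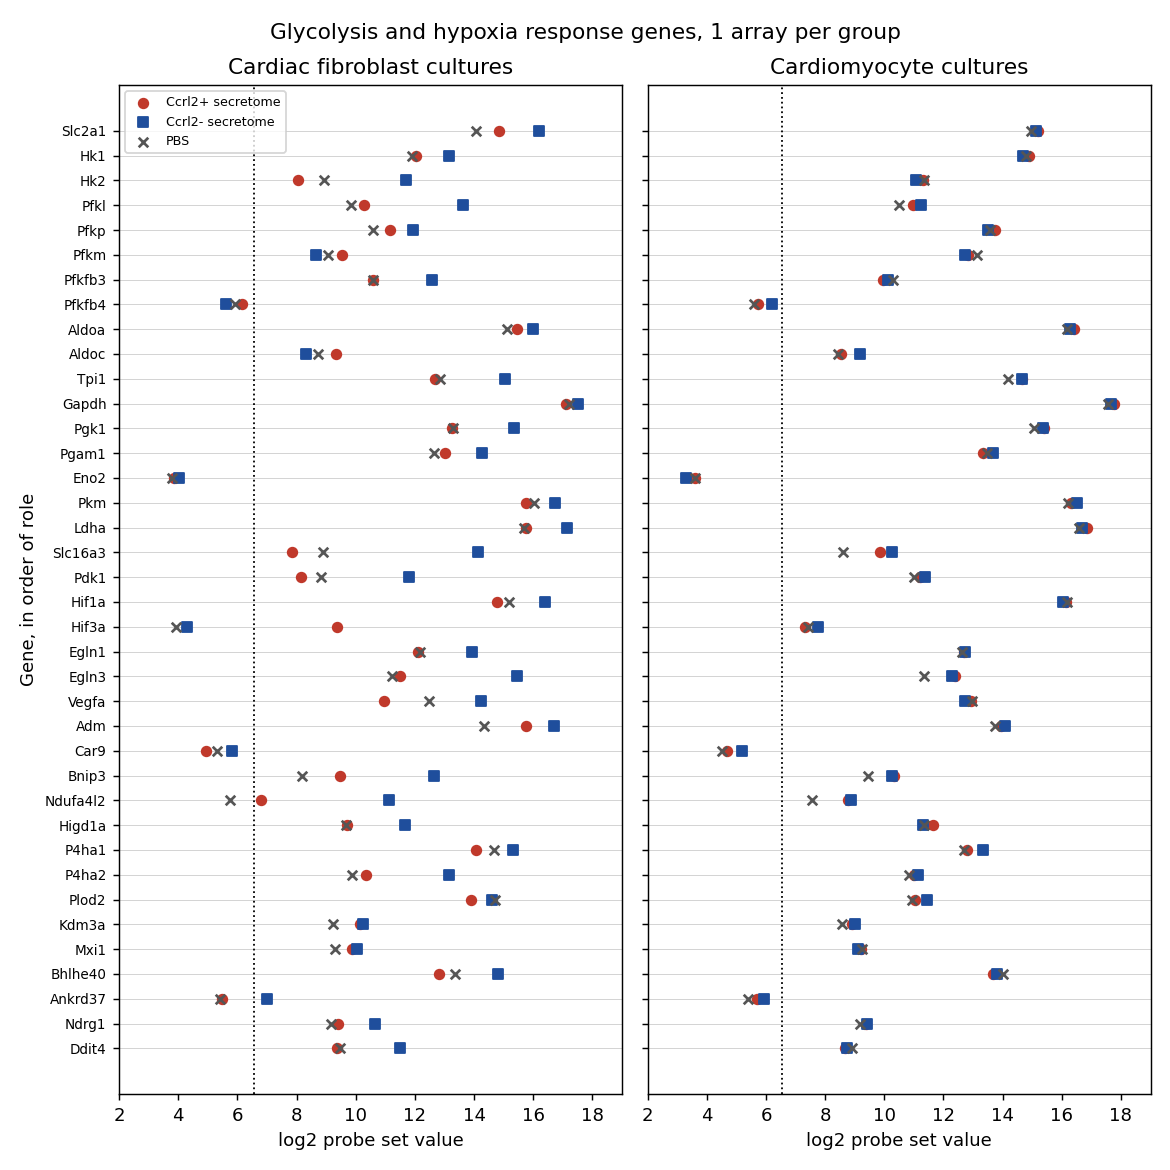
Log2 probe set value (x axis) of each of the 38 genes (y axis) in CF (left) and CM (right) cultures, with 1 point per array: Ccrl2+ secretome (red circle), Ccrl2- secretome (blue square) and PBS (grey cross). The dotted line is the floor of 6.55. In CF the Ccrl2- array holds the highest value of 31 of 35 genes past the floor, a count not made over all genes. The CM points of most genes lie close together.

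In fibroblasts the array labelled Ccrl2- secretome stood above PBS for most of the list. At 2-fold, 26 of the 34 genes past the floor stood higher and 0 lower, where 6.18% of the 10057 genes measured past the floor did so upward and 4.83% downward. The median difference over the list was 1.69, against -0.09 over all genes past the floor. Of the listed genes past the floor, 12 of 17 glycolysis genes and 14 of 17 hypoxia response genes were at least 2-fold higher, with medians of 1.64 and 1.75. On this array lay the highest value of all 6 arrays for 26 of 35 listed genes that reached the floor, among them Hif1a, Slc16a3, Ldha and Vegfa. These are not the same 26 as at 2-fold. They include Pkm, P4ha1 and Mxi1 and lack Hk1, Pfkp and Pgk1. The highest array was not counted over all genes.

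All 3 genes of glucose capture were past 2-fold. Slc2a1, the glucose transporter GLUT1, stood at 16.19 with the Ccrl2- secretome against 14.08 in PBS. Hk2, the inducible hexokinase, stood at 11.71 against 8.91, a difference of 2.8 (6.96-fold), and the housekeeping hexokinase gene Hk1 at 13.15 against 11.89. The phosphofructokinase genes, whose enzyme catalyses the committed step, did not move alike. The liver-type gene Pfkl stood at 13.64 against 9.83 (14.0-fold), the platelet-type gene Pfkp at 11.93 against 10.57, and the muscle-type gene Pfkm at 8.67 against 9.06, within 2-fold. Pfkfb3, which encodes the enzyme that makes the sugar phosphate activating phosphofructokinase, differed by 1.99 (12.57 against 10.58). Of the aldolase genes, Aldoa (15.98 against 15.13) and Aldoc (8.33 against 8.74) were both within 2-fold.

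Further down the pathway the genes varied widely. Tpi1, the triosephosphate isomerase gene, stood at 15.03 against 12.86, Pgk1, the phosphoglycerate kinase gene, at 15.34 against 13.28, and Pgam1, the phosphoglycerate mutase gene, at 14.27 against 12.63. Gapdh (17.51 against 17.2) and the pyruvate kinase gene Pkm (16.74 against 16.02) were within 2-fold. Ldha, which encodes the muscle-type subunit of lactate dehydrogenase, differed by 1.45 (17.15 against 15.7). The lactate exporter gene Slc16a3 showed the largest difference of the glycolysis genes, 5.23 or 37.5-fold (14.12 against 8.89), although the PBS value lay under the 95th percentile of that array's negative controls (10.74), so the size of the fold is uncertain. The same holds for the PBS values of Pfkl, Hk2, Pdk1, Bnip3, P4ha2, Pfkp, Pfkfb3, Ndufa4l2, Higd1a, Kdm3a, Ankrd37, Ndrg1 and Ddit4, all below 10.74. The Ccrl2- values of Kdm3a, Ankrd37 and Ndrg1 lay under their array's percentile too (10.69). Pdk1, whose kinase inhibits pyruvate dehydrogenase, stood at 11.81 against 8.84.

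Of the oxygen-sensing genes, Egln3, a prolyl hydroxylase gene that is itself a HIF target, stood at 15.45 against 11.22 (18.8-fold), and its relative Egln1, which encodes the main hydroxylase of HIF, at 13.93 against 12.18. Hif1a, the gene of the oxygen-regulated subunit, differed by 1.24 (16.41 against 15.17), and its RNA does not show the state of the protein. The 3 mitochondrial genes had the largest median difference of any role, 4.44. Ndufa4l2, which encodes a subunit-like protein that lowers complex I activity, was at least 4.59 higher (11.14 against 5.76). Bnip3, a mitophagy receptor gene, stood at 12.63 against 8.19 (21.7-fold), and Higd1a, a respiratory chain assembly factor gene, at 11.68 against 9.68. Among secreted factors, the vasodilator peptide gene Adm differed by 2.38 (16.72 against 14.34) and the vessel growth factor gene Vegfa by 1.76 (14.24 against 12.48).

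The genes of collagen modification split. P4ha2, a catalytic subunit gene of collagen prolyl hydroxylase, stood at 13.15 against 9.89 (9.58-fold), whereas P4ha1, the gene of another catalytic subunit, was within 2-fold (15.33 against 14.68). The lysyl hydroxylase gene Plod2 stood at 14.6 against 14.72. Ero1a, the gene of the endoplasmic reticulum oxidase, which was outside the count, differed by 2.55 (15.94 against 13.39). Of the regulators, Ddit4, which encodes an inhibitor of mTORC1, differed by 2.01, Ndrg1, a stress-response gene, by 1.49, the transcriptional repressor gene Bhlhe40 by 1.47 and the histone demethylase gene Kdm3a by 1.02, while Mxi1, a Myc antagonist gene, differed by 0.73. Ankrd37 was at least 0.44 higher (6.99 against 5.42).

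Beside these differences, the macrophage markers of the CF arrays moved in both directions. Their list median was 9.7 with the Ccrl2- secretome and 10.04 in PBS, and 11 of 12 reached the floor on each array. Cd14 (11.3 against 8.54) and Lyz2 (13.84 against 12.52) were higher, and Mrc1 (11.04 against 12.76), Csf1r (10.85 against 11.95) and C1qc (8.11 against 9.84) lower. The log2 of the summed linear level of the list was 14.66 against 14.67. The 4 poly-A spike-in transcripts differed by a median of -0.31, and 6.84% of the negative controls that reached the floor were higher at 2-fold. The part of culture composition in the result was not tested.

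Printed here are promoter windows of 6 genes, those with the largest differences among genes whose window could be read and held ACGTG or GCGTG. HIF is known to bind these letters. The windows were picked for holding them, so their presence was fixed in advance. Ndufa4l2, with the largest measured difference (5.38), was left out by this rule. The part of HIF in the differences was not tested. Each window runs from 250 bases before to 50 after the annotated start, 5′ to 3′ along the gene, from RefSeq on build GRCm38.p6, and is the first window listed for its gene. Capitals mark ACGTG and GCGTG and, for the other strand, CACGT and CACGC, overlaps included. The windows are Slc16a3 at chr11:120948817-120949116 (plus strand), Bnip3 at chr7:138909457-138909756 (minus strand), Egln3 at chr12:54203825-54204124 (minus strand), Pfkl at chr10:78009758-78010057 (minus strand), P4ha2 at chr11:54100674-54100973 (plus strand) and Pdk1 at chr2:71872974-71873273 (plus strand).
Slc16a3: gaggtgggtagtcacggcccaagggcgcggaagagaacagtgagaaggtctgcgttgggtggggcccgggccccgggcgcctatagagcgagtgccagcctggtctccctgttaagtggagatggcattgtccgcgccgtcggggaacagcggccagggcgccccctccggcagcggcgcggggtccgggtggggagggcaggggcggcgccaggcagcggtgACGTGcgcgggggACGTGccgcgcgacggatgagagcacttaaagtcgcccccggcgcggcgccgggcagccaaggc
Bnip3: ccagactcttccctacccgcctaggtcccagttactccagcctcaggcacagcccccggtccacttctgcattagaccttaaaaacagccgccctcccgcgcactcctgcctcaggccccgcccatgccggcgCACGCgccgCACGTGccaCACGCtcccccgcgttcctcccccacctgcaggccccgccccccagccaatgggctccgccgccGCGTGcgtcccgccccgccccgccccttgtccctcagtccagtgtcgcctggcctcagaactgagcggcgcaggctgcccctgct
Egln3: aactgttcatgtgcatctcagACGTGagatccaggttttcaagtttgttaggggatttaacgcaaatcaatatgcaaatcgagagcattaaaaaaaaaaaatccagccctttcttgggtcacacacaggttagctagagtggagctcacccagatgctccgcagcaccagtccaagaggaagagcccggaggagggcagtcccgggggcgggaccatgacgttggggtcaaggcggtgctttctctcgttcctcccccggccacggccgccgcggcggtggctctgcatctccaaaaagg
Pfkl: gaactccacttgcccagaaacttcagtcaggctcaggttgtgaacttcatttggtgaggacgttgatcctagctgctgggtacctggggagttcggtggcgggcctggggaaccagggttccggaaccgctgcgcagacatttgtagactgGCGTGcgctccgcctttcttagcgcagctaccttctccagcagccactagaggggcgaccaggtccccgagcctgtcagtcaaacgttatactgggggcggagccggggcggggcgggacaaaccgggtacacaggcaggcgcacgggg
P4ha2: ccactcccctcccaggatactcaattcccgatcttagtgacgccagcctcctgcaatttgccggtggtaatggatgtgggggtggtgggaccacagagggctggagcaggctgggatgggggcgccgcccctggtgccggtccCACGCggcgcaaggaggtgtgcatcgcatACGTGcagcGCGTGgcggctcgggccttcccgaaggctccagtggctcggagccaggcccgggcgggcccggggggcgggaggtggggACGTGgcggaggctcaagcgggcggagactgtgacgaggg
Pdk1: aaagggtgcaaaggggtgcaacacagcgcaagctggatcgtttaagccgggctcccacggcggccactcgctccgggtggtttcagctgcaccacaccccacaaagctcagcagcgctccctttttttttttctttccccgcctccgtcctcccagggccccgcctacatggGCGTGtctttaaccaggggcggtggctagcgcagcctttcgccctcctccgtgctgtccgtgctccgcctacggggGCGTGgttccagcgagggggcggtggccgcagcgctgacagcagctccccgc

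Slc16a3 carries 2 such matches and P4ha2 carries 4, while Egln3 and Pfkl carry 1 each. For comparison, 2 windows of genes within 2-fold are shown, those of Gapdh at chr6:125165724-125166023 (minus strand) and Pfkm at chr15:98092339-98092638 (plus strand), which hold the letters as well, 3 matches each.
Gapdh: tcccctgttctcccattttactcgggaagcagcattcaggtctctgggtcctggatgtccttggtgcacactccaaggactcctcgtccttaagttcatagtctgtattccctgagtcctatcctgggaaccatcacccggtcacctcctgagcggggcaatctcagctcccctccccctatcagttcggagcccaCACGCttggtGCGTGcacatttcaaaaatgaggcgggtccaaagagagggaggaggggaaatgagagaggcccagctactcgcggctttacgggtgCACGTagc
Pfkm: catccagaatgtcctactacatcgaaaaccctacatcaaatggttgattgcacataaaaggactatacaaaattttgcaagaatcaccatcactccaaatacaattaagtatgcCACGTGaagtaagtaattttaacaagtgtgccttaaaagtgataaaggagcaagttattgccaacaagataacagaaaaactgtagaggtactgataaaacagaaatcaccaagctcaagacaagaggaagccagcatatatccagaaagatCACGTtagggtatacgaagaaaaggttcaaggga

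At least 1 match stood in 20 of the 23 windows of genes at least 2-fold higher in this comparison (87.0%), in 4 of 7 windows of genes within 2-fold (57.1%), in 3 of 4 of genes below the floor (75%), in 27 of all 34 listed genes with a window (79.4%), and in 43.8% of the first listed windows of all 27025 genes in the table. The motif contains the dinucleotide CG, of which the windows held a median of 25 in the higher genes, 12 in the genes within 2-fold and 7 in all genes. A match is a string of letters and no measured binding, and the hypoxia genes were listed as HIF targets or regulators in the first place.

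With the Ccrl2+ secretome few of these genes left the PBS level in fibroblasts. At 2-fold, 4 of 34 genes stood higher and 2 lower, where 4.87% of all 10042 genes were higher and 6.13% lower. Of the negative controls past the floor in this pair, 8.52% were higher and 11.2% lower. The list median was 0.1, against -0.07 over all genes. This comparison and the preceding one share the PBS array.

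Hif3a differed most. It encodes a HIF alpha subunit with splice forms that restrain the HIF response, and it stood at 9.37 with the Ccrl2+ secretome, 4.28 with the Ccrl2- secretome and 3.93 in PBS. It was at least 2.82 higher than in PBS. Its value in these fibroblasts also lay above all 3 CM arrays (7.33, 7.77 and 7.43), but under 10.67, which 95% of that array's negative controls did not exceed. The cardiomyocyte markers were higher on this array too, with a list median of 9.22 against 7.78 in PBS, and so was the poly-A spike-in median, by 0.61. Their part in the Hif3a result was not tested.

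Adm (15.76 against 14.34), Bnip3 (9.47 against 8.19) and Ndufa4l2 (6.78 against 5.76, at least 0.23) were the other genes past 2-fold above PBS. Vegfa was lower, at 10.96 against 12.48 (2.87-fold), as was Slc16a3, at 7.83 against 8.89 (2.08-fold). Both values of Bnip3, Ndufa4l2 and Slc16a3 lay under the 95th percentile of their array's negative controls (10.67 and 10.74). None of the 17 glycolysis genes past the floor was at least 2-fold higher, and Pgk1 (13.26 against 13.28), Ldha (15.75 against 15.7) and Pfkfb3 (10.58 against 10.58) lay at the PBS level. Hk2 (8.06 against 8.91), Plod2 (13.91 against 14.72) and Pdk1 (8.15 against 8.84) were below PBS by less than 2-fold, and Kdm3a (10.14 against 9.23) and Slc2a1 (14.83 against 14.08) above it by less than 2-fold.

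**Figure D2:**
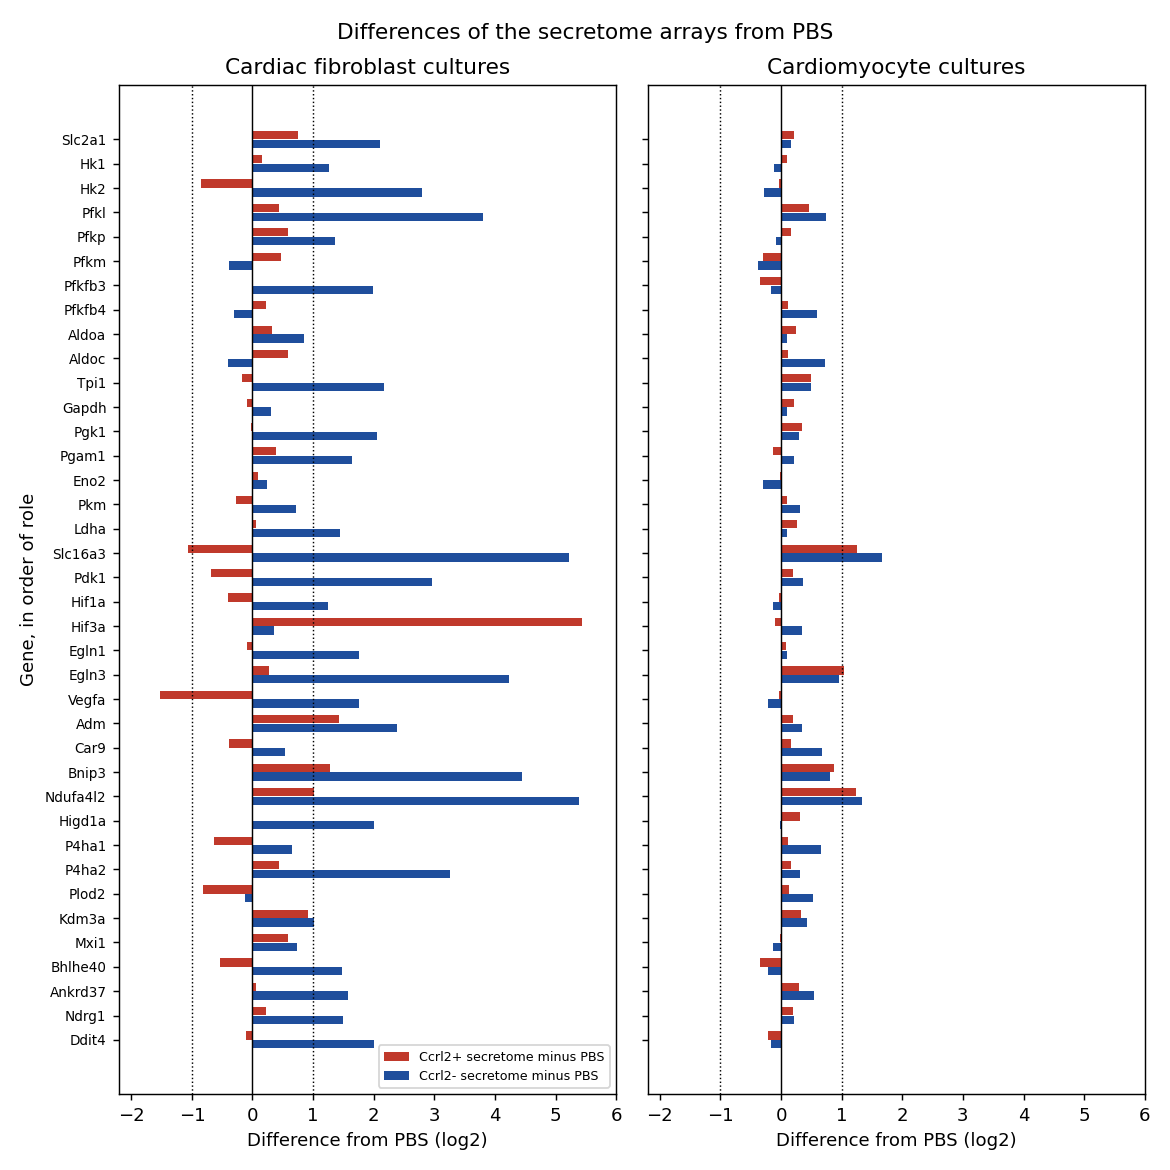
Difference from PBS in log2 units (x axis) for each of the 38 genes (y axis) in CF (left) and CM (right), Ccrl2+ minus PBS in red and Ccrl2- minus PBS in blue, with dotted lines at 2-fold. Bars show measured values, also where a value lay below the floor, as for Hif3a and Ndufa4l2 in CF. The blue bars of 26 genes past the floor exceed 2-fold in CF, and the longest red bar is that of Hif3a, whose bound is 2.82.

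Set directly against each other, the CF arrays differed widely. Of 35 genes, 2 stood at least 2-fold higher on the Ccrl2+ array than on the Ccrl2- array, and 25 stood lower. Over all 10144 genes past the floor 8.55% were higher and 10.1% lower. Of the negative controls past the floor 7.75% were higher and 11.3% lower. The list median was -1.51 and that of all genes 0.0. Both arrays also enter the comparisons with PBS, so this is another view of the same values.

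Slc16a3 was lower by 78.2-fold (7.83 with the Ccrl2+ secretome against 14.12 with the Ccrl2- secretome), but its Ccrl2+ value lay under the 95th percentile of that array's negative controls (10.67), so the size of the fold is uncertain. Egln3 stood at 11.49 against 15.45, Pdk1 at 8.15 against 11.81, Hk2 at 8.06 against 11.71 and Vegfa at 10.96 against 14.24. Ndufa4l2 stood at 6.78 against 11.14, a difference of -4.36. The Ccrl2+ values of Pdk1, Hk2 and Ndufa4l2 lay under 10.67 as well. Hif1a was lower by 3.12-fold (14.77 against 16.41). Gapdh (-0.4), Aldoa (-0.53), Pfkp (-0.78), Adm (-0.96), Plod2 (-0.69), Kdm3a (-0.11), Mxi1 (-0.14) and Pfkm (0.86) were within 2-fold. The genes higher with the Ccrl2+ secretome were Hif3a, by at least 2.82, and Aldoc, which sat on the threshold (9.33 against 8.33). Pkm also sat on it in the other direction (15.74 against 16.74). Between these arrays the medians of the poly-A and hybridisation spike-ins differed by 0.89 and 0.33, both higher with the Ccrl2+ secretome. The marker medians were higher on that array too, at 11.1 against 9.7 for macrophages, 9.22 against 7.58 for cardiomyocytes and 15.69 against 14.24 for fibroblasts. Single macrophage and fibroblast markers went both ways. Mrc1 (13.47 against 11.04) and C1qc (11.07 against 8.11) were higher. Cd14 (7.28 against 11.3), Adgre1 (9.41 against 10.45) and Lyz2 (13.47 against 13.84) were lower. Dcn, Col1a1 (15.69 against 16.45), Col3a1, Postn and Ddr2 were lower, Col1a2 was level (16.6 on both) and the other fibroblast markers were higher. The log2 of the summed linear level of the fibroblast list was 19.73 against 19.54. The part of these in the result was not tested.

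In cardiomyocytes the list stood close to PBS with either secretome, apart from a few HIF target genes. With the Ccrl2+ secretome 3 of 34 genes stood higher at 2-fold and 0 lower, where only 21 of all 10009 genes (0.21%) were higher and 0.629% lower. They were Slc16a3 (9.85 against 8.6), Ndufa4l2 (8.78 against 7.54) and Egln3 (12.38 against 11.34), the 7th, 8th and 19th largest differences of the array pair. Bnip3 followed at 10.33 against 9.45, below 2-fold. Among the 5101 genes that reached the higher floor of 10.14, the 75th percentile of named values, Egln3 was the 1 gene at least 2-fold higher (0.0196%). Its difference of 1.04 was just past the threshold. Of the 307 negative controls that reached the same floor, 10.1% were at least 2-fold higher. The list median was 0.17, against -0.01 over all genes.

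With the Ccrl2- secretome 2 of 34 genes stood higher at 2-fold and 0 lower, where 0.746% of all 10054 genes were higher and 0.786% lower. Slc16a3 stood at 10.26 against 8.6 in PBS (3.16-fold) and Ndufa4l2 at 8.87 against 7.54 (2.51-fold). Egln3 (12.29 against 11.34), Bnip3 (10.26 against 9.45), Pfkl (11.25 against 10.51) and P4ha1 (13.34 against 12.68) lay above PBS by less than 2-fold. The list median was 0.21, against -0.02 over all genes.

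Both comparisons share the PBS array. On all 3 CM arrays Ndufa4l2 lay under the 95th percentile of negative controls (10.22, 10.25 and 10.2), and Slc16a3 lay below it with the Ccrl2+ secretome and in PBS, but not with the Ccrl2- secretome (10.26). Of the negative controls past the floor, 12.9% differed at least 2-fold with the Ccrl2+ secretome and 17.7% with the Ccrl2- secretome. Egln3 lay above that percentile on all 3 CM arrays. The macrophage markers of the CM arrays had medians of 9.52 with the Ccrl2+ secretome, 10.02 with the Ccrl2- secretome and 10.68 in PBS. The fibroblast marker medians were 10.21, 11.3 and 10.13 in the same order. The part of culture composition in these differences was not tested.

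Between the secretomes the CM arrays differed at 2-fold in 0 of 34 genes, against 0.13% of all 9995 genes higher and 0.18% lower. The differences of the list ran from -0.62 (Aldoc, 8.55 with the Ccrl2+ secretome against 9.17 with the Ccrl2- secretome) to 0.34 (Higd1a, 11.66 against 11.32). Hif1a (16.15 against 16.05), Egln3 (12.38 against 12.29) and Slc16a3 (9.85 against 10.26) were among those within 2-fold, and 1 array a group cannot show that the secretomes act alike.

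**Figure D3:**
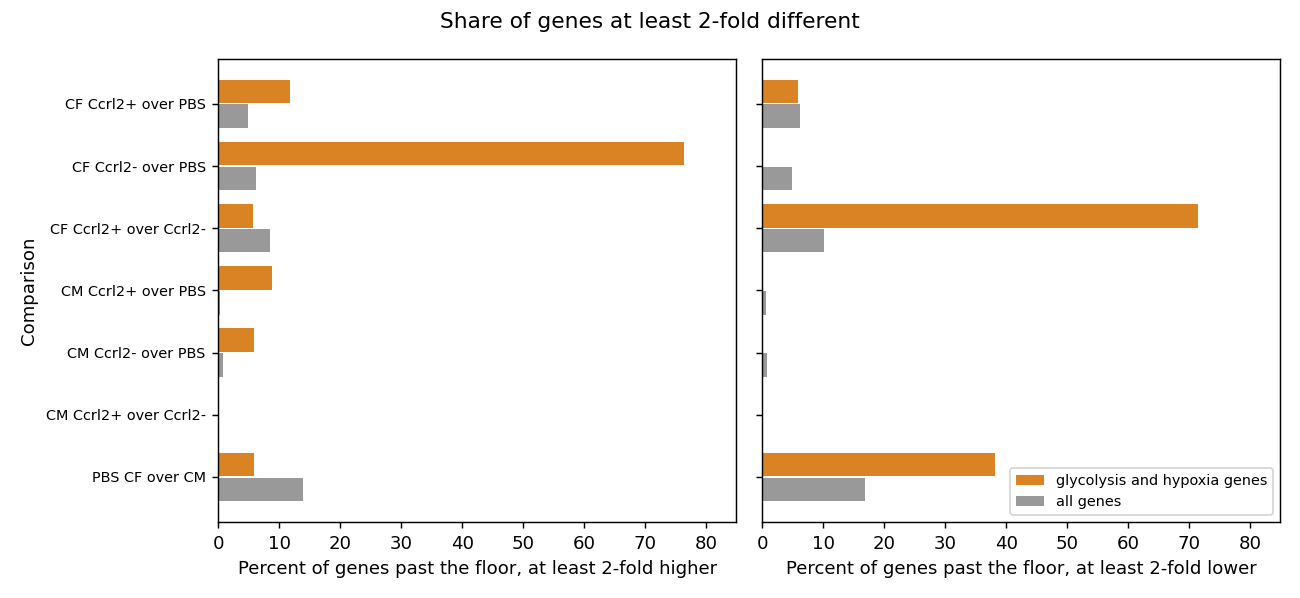
Percent of genes past the floor (x axis) that were at least 2-fold higher (left) or lower (right) in each of 7 comparisons (y axis), for the glycolysis and hypoxia genes (orange) and for all genes (grey). In CF with the Ccrl2- secretome over PBS, 26 of 34 listed genes were higher against 6.18% of all genes, and in CM between the secretomes 0 of 34 differed.

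The difference from PBS with the Ccrl2- secretome was compared between the cultures gene by gene. Among 33 genes past the floor in both, the CF difference exceeded the CM difference by at least 2-fold in 24 and fell below it by as much in 1, Aldoc (-0.41 in CF against 0.73 in CM), with a median of 1.67. Of all 9451 genes so compared, 6.29% were larger in CF and 6.96% smaller by that rule, with a median of -0.08. Hk2 differed from PBS by 2.8 in CF against -0.28 in CM, Pfkfb3 by 1.99 against -0.17, Vegfa by 1.76 against -0.22 and Hif1a by 1.24 against -0.13. Slc16a3 (5.23 against 1.66), Ndufa4l2 (5.38 against 1.33, as measured), Bnip3 (4.44 against 0.81) and Egln3 (4.23 against 0.95) held the 4 largest differences in both cultures. P4ha1 (0.65 against 0.66), Pfkm (-0.39 against -0.38) and Kdm3a (1.02 against 0.43) differed little between the cultures. With the Ccrl2+ secretome the same median was -0.1 over 34 genes, with 2 at least 2-fold larger in CF (Hif3a and Adm) and 2 smaller (Slc16a3 and Vegfa). Of all 9448 genes, 5.46% were larger in CF and 6.24% smaller, with a median of -0.06, so these counts are near the general share. No replicate stands behind any of these, and the difference between the cultures was not tested.

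**Figure D4:**
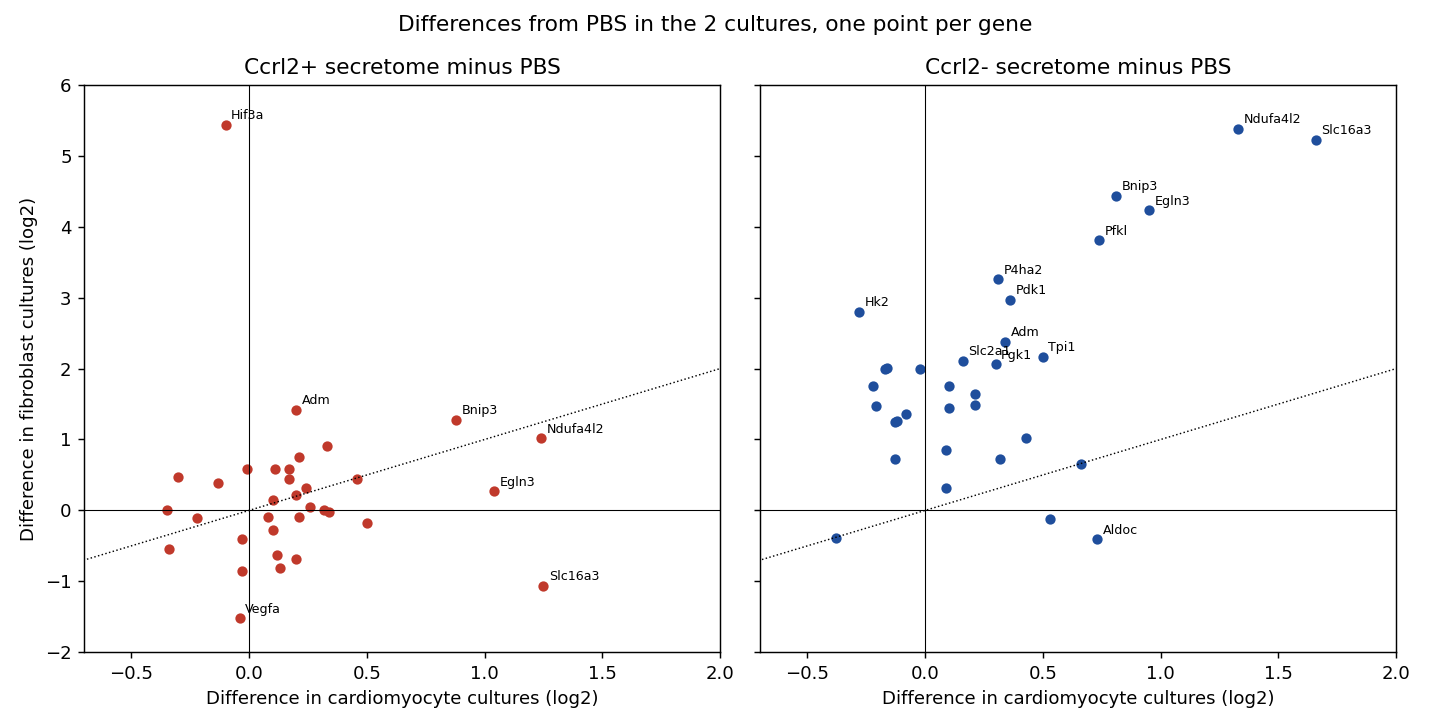
Difference from PBS in CF (y axis, log2) against that in CM (x axis, log2, on a narrower scale), 1 point per gene past the floor in both cultures, for the Ccrl2+ (left) and Ccrl2- (right) secretome, and the dotted line marks equal differences. On the right 24 of 33 genes lie at least 1 unit above that line, against 6.29% of all genes, and on the left Slc16a3 lies at -1.06 in CF and 1.25 in CM.

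In PBS the fibroblast culture carried lower levels of many of these genes than the cardiomyocyte culture. At 2-fold, 2 of 34 genes stood higher in CF and 13 lower, where 13.9% of all 10394 genes were higher and 16.9% lower. The list median was -0.76, against 0.01 over all genes. Pfkm, the muscle-type phosphofructokinase gene, stood at 9.06 in CF and 13.12 in CM, Pfkp at 10.57 and 13.57, Hk1 at 11.89 and 14.8, and Hk2 at 8.91 and 11.34. Pdk1 (8.84 and 11.01), Pgk1 (13.28 and 15.07) and Hif1a (15.17 and 16.18) were lower in CF too. Hif3a (3.93 and 7.43) was lower by at least 0.88. The CF values of Pfkm, Pfkp, Hk2, Pdk1 and Hif3a lay under the 95th percentile of that array's negative controls (10.74). The size of these differences is therefore uncertain. The 2 genes higher in CF both modify collagen, Plod2 (14.72 and 10.92) and P4ha1 (14.68 and 12.68). Egln3 (11.22 and 11.34), Ndrg1 (9.17 and 9.19), Mxi1 (9.3 and 9.23) and Pkm (16.02 and 16.2) stood at nearly the same value in both. The negative controls ran the other way, higher in CF by a median of 0.55. The endothelial marker median was 8.31 in CF and 12.66 in CM, and the part of culture composition was not tested. With the Ccrl2- secretome several CF values reached or passed the CM value in PBS, for example Slc2a1 (16.19 and 14.97), Tpi1 (15.03 and 14.17), Pgk1 (15.34 and 15.07) and Hk2 (11.71 and 11.34), while Hk1 (13.15 and 14.8) and Pfkp (11.93 and 13.57) did not.

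**Figure D5:**
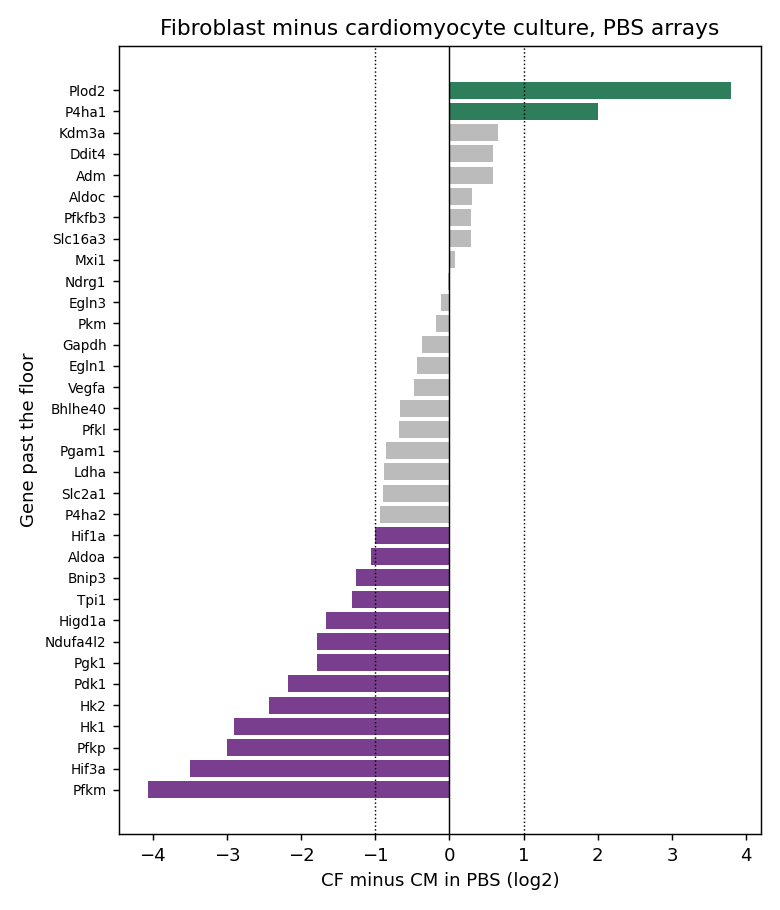
Difference of the PBS arrays, CF minus CM in log2 units (x axis), for the 34 genes past the floor (y axis, sorted), with dotted lines at 2-fold. Green bars are the 2 genes at least 2-fold higher in CF (Plod2 and P4ha1), purple bars the 13 at least 2-fold lower and grey bars the rest, and bars of Hif3a and Ndufa4l2 are measured values with the CF value below the floor.

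Other genes of the same pathways were taken from 3 further lists. These lists were chosen with earlier results of these data known, so they are no independent check. Of 39 other hypoxia response genes on the array, 33 were past the floor in CF with the Ccrl2- secretome over PBS, and 16 of these stood higher at 2-fold and 0 lower (median difference 0.93). Over all 10057 genes past the floor 6.18% were higher and 4.83% lower. Angptl4, a lipoprotein lipase inhibitor gene, was at least 3.46 higher (10.01 against 4.42), Ak4, a mitochondrial adenylate kinase gene, at least 3.71 (10.26 against 6.03), and Nos2, the inducible nitric oxide synthase gene, at least 3.43 (9.98 against 4.69). Fam162a stood at 12.69 against 9.13, the ceruloplasmin gene Cp at 16.53 against 13.64 and the placental growth factor gene Pgf at 8.93 against 6.55. Both values of Angptl4, Ak4, Nos2 and Pgf lay under the 95th percentile of their array's negative controls (10.69 and 10.74). The PBS value of Fam162a did too, so the size of these differences is uncertain. Nos2 and Cp are also known to respond to inflammatory signals. With the Ccrl2+ secretome 5 of 29 were higher and 1 lower, where 4.87% of all genes were higher and 6.13% lower. Among the higher were Selenbp1 (9.35 against 6.83), Cp (15.76 against 13.64), Errfi1 (12.77 against 10.75) and the stanniocalcin gene Stc2 (13.52 against 11.98). Sap30 was lower (8.85 against 9.9).

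Of 15 other HIF pathway genes, 2 were higher with the Ccrl2- secretome, Epas1, the gene of HIF-2 alpha (14.07 against 12.28), and Vhl (10.9 against 9.85), and 0 lower. Counted in either direction, 13.33% of these genes passed 2-fold, near the 11.02% of all genes. With the Ccrl2+ secretome Epas1 (13.29 against 12.28) and the clock gene Arntl (11.49 against 10.44) were higher and the ubiquitin ligase gene Siah2 was lower (6.97 against 8.52). As a list the other glycolysis genes did not follow the listed ones. With the Ccrl2- secretome 3 of 21 were higher (Slc2a3, Slc2a6 and Pgm1) and 4 lower, with a median of -0.25. Most lay low in CF. The median level of the 32 on the array was 7.04 with the Ccrl2- secretome and 7.15 in PBS, near the floor. The listed glycolysis genes had medians of 13.64 and 10.58. In PBS 15 of 21 other glycolysis genes were at least 2-fold lower in CF than in CM, against 16.9% of all genes. Over all genes 6.18% were higher and 4.83% lower. Of the lower ones Pdk2 had both values past the floor (7.81 against 9.5). Eno3, the muscle enolase gene (5.73 against 7.37, at least 0.82), Pgam2 (at least 0.49) and Slc16a7 (at least 0.63) fell short of 2-fold by their bounds.

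The pyruvate dehydrogenase kinase genes differed in direction between the secretomes in CF. Pdk1 stood at 8.15 with the Ccrl2+ secretome, 11.81 with the Ccrl2- secretome and 8.84 in PBS. Pdk4, the isoform known to follow fasting and glucocorticoids, stood at 10.51 against 6.56 between the secretomes (7.19 in PBS), and Pdk2 at 10.64 against 7.81 (9.5 in PBS). All CF values of Pdk2 and Pdk4 lay under the 95th percentile of their array's negative controls (10.67, 10.69 and 10.74). Of Pdk1 only the Ccrl2- value lay above it, so the size of these differences is uncertain. As measured, Pdk1 was highest with the Ccrl2- secretome, and Pdk2 and Pdk4 with the Ccrl2+ secretome. In PBS both were lower in CF than in CM, Pdk2 at 9.5 and 12.73 and Pdk4 at 7.19 and 10.2, and the cardiomyocyte marker median of the CF arrays was 9.22 with the Ccrl2+ secretome, 7.58 with the Ccrl2- secretome and 7.78 in PBS. The part of cardiomyocyte RNA in these values was not tested. The glucose transporter gene Slc2a3 was above PBS with both secretomes, at 9.32 and 8.52 against 6.85. Its CF values all lay under those percentiles too. In CM, of the 3 further lists only Ak4 reached 2-fold, with the Ccrl2+ secretome (7.26 against 6.16, at least 0.71).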

How the data were processed

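Total RNA (1 to 8 ug) of 6 mouse heart cell cultures was made into biotinylated cRNA for Affymetrix arrays, per the labels' protocols. Each deposited value is a log2 summary of 1 probe set, and the submitters' processing notes name Affymetrix Expression Console as the authors' tool. Version, summary method and annotation release were not given in the sources used here, and the log2 scale was read from the values. Medians of the named values ran from 6.5 to 6.59 on the 6 arrays.

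Symbols came from the platform's probe annotation (19572 of 28846 probe sets, and for a gene with several probe sets the one with the highest mean), and all 38 listed genes matched RefSeq by Entrez identifier. Values of array pairs were subtracted and counted at 2-fold past the floor of 6.55, over all 19505 genes. Each group had 1 array, whose number limits the precision, so no p-value was computed. Counting was also tested on simulated differences of known size. The simulation took its noise from the CM secretome arrays and placed differences only in genes well above the floor. It therefore does not cover the CF pairs or genes near the floor. Promoter windows were matched by symbol for 34 of the 38 genes.

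Named genes followed a rule: all listed genes, other pathway genes at 2-fold, markers, and the promoters of the largest differences whose window held the motif. Other pathway genes were limited to 6 per list, direction and comparison. The genes, lists and thresholds were chosen with earlier results of these data known. The settings varied were the threshold (1.5- and 3-fold), the floor (none, or 10.14), quantile normalization, a loess trend removed (span 0.4), mean probe sets, and values below the floor raised to it. Python 3.11.15, numpy 2.4.6, pandas 2.3.3, statsmodels 0.14.6 and matplotlib 3.10.9 were used.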

Additional observations from a re-analysis of the deposited data

Results flagged for a closer look

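Slc16a3, the lactate exporter gene, was at least 2-fold different from PBS in opposite directions in the cultures with the Ccrl2+ secretome. It was lower in CF (7.83 against 8.89 in PBS, a difference of -1.06) and higher in CM (9.85 against 8.6, a difference of 1.25), so the CF difference minus the CM difference was -2.31. Each value is 1 array, and the difference between the cultures was not tested. All 4 values were under the 95th percentile of their array's negative controls, 10.67, 10.74, 10.22 and 10.2.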

How the results depend on the processing

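No paired analysis was possible because each group has 1 array, and for the same reason no array could be left out. Shares in brackets are those of all genes under the same setting. At 1.5-fold, 8 of 34 listed genes were higher (11.4%) and 6 lower (15%) in CF with Ccrl2+ over PBS, 7 higher in CM with Ccrl2- over PBS (4.63%), 1 lower in CM with Ccrl2+ than Ccrl2- (2.39%) and 5 higher in CF than CM in PBS (24.4%). At 3-fold, 1 was higher (2.14%) and 0 lower (2.11%) in CF with Ccrl2+ over PBS, 1 higher in CF with Ccrl2+ over Ccrl2- (3.41%), and 0 with Ccrl2+ (0%) and 1 with Ccrl2- (0.109%) higher in CM over PBS. With the floor at 10.14 these 5 counts were 1 (4.44%), 1 (5.53%), 0 (8.82%), 1 (0.0196%) and 1 (0.428%), and the medians were 1.88 in CF with Ccrl2- over PBS, -1.92 with Ccrl2+ over Ccrl2-, -0.88 for CF over CM in PBS and -0.2 for the CF minus CM effect of Ccrl2+. With no floor the medians were 1.53, -1.38 and -0.58, and 1.43 for the CF minus CM effect of Ccrl2-. After loess, CF with Ccrl2- over PBS had a median of 1.8 and 1 gene was higher with Ccrl2+ over Ccrl2- (8.23%); raising low values to the floor gave that comparison a median of -1.4. Fewer genes enter at the higher floor and more with none; otherwise the cause was not tested. Of 64 calls of single listed genes against PBS or between secretomes, 38 held at 3-fold, 53 at the higher floor, 62 after loess, 63 after quantile normalization, 61 with low values raised and 64 with mean probe sets, where each listed gene has 1 probe set, and 0 reversed. Hif3a in CF was lost at the higher floor, and Aldoc and Pkm between the CF arrays after loess.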
